A study of Mus musculus with 6 samples.

Results

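Single-nucleus RNA-seq of whole retina from wild-type C57BL6/J mice was used to describe 10 genes, Frmd5, Immp2l, Kdm2a, Usp29, Macrod2, Ccdc88a, Cdc42bpa, Fnip1, Desi2 and Nptn, out of 32285 genes in the count matrices. They were found by exact gene symbol. They had been picked because, in an earlier look at these libraries, their levels at 18 months lay above those at 3 months without overlap in 5 or 6 retinal classes, so their age values below are a description and carry no test. The libraries ask what differs between retinas of the 2 ages, and 3 months and 18 months each have 3 of them (replicates 1 to 3). All mice were WT, with no other allele and no agent named for these libraries. The labels do not say that libraries came from separate animals, so p-values measure only spread over libraries. For class differences this is the spread left once differences between libraries common to all classes are removed.

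With nuclei assigned to classes by marker genes, the description under which the genes were picked did not hold. None of the 10 was higher without overlap in 5 or 6 of 7 classes. The most was 3 classes, for Immp2l, Kdm2a and Nptn. As the choice implies, their mean level was higher at 18 months in 63 of the 70 gene and class pairs, and 1 library, 18 months replicate 3, was the highest in 43. Between 44.0% and 52.1% of all genes tested in a class had a higher mean at 18 months. Differences between classes were tested over both ages. They use the same libraries as the choice, and the 3-month values that made a gene count as higher with age enter them. Where a class difference passed over both ages but not with the libraries of 1 age alone, that result is given. With the 18-month libraries alone 14 such differences passed and 14 did not. With the 3-month libraries alone 19 passed and 9 did not.

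The 10 genes have no common pathway. Frmd5 encodes a FERM-domain protein of cell contacts, Ccdc88a encodes the actin-binding protein Girdin, and Cdc42bpa encodes MRCK alpha, a kinase that acts on actomyosin downstream of Cdc42. Nptn encodes neuroplastin, an immunoglobulin-family adhesion protein of synapses and a partner of the plasma membrane calcium pumps. Immp2l is a catalytic subunit of the inner mitochondrial membrane peptidase, Kdm2a is a demethylase of histone H3 lysine 36, and Macrod2 removes ADP-ribose from proteins. Usp29 is a ubiquitin peptidase expressed from the paternal allele, Desi2 belongs to the deSUMOylating isopeptidases, and Fnip1 binds folliculin in the nutrient-sensing pathway of AMPK and the Rag GTPases.

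The genes are long, and nuclear RNA holds unspliced transcripts; whether intronic reads were counted is not given in the sources used here. In GENCODE M21 (mm10) Macrod2 spanned 1998 kb (chr2:140395309-142392966, plus strand) and Immp2l 931 kb (chr12:41024090-41955588, plus strand). Exons made up 0.516% and 0.197% of these spans. Frmd5 (chr2:121545529-121807087, minus strand), Usp29 (chr7:6730578-6967219, plus), Cdc42bpa (chr1:179960472-180165603, plus) and Ccdc88a (chr11:29373658-29510808, plus) spanned 137 to 262 kb. Kdm2a (chr19:4314419-4398285, minus), Fnip1 (chr11:54438199-54518235, plus), Nptn (chr9:58582240-58657955, plus) and Desi2 (chr1:178187417-178257301, plus) spanned 69.9 to 83.9 kb. The median of the 10 was 171 kb, against 45.7 kb for the 6007 genes tested in all 7 classes that have a GENCODE entry. Among these 6007, the median was 37.0 kb for the 4654 genes higher with age without overlap in 0 classes. It was 84.5 kb for the 1030 genes higher in 1 class and 125 kb for the 323 higher in 2 or more. The 7 genes higher in 4 classes had a median of 57.6 kb. The members were chosen on this age contrast, and the part of span in their values was not tested. Genes counted in these files also lie within or across Immp2l (7 of them, Lrrn3 included), Macrod2 (3, Flrt3 included), Usp29 (Zim3), Cdc42bpa (Coq8a) and Nptn (Rec114). All of these are on the opposite strand, and whether counting used strand is not given in the sources used here.

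RefSeq promoter windows (GRCm38.p6; 250 bases before to 50 after the start) were found for 9 of the 10 genes, in 11 windows; Kdm2a is named only. The share of CpG dinucleotides over that expected from base composition was 0.81 at the median of the 11 windows and 0.38 over all 32851 promoter windows. The 4 stretches shown here, 250 bases before the start, 5′ to 3′, belong to Immp2l (chr12:41023840-41024089) and Ccdc88a (chr11:29373408-29373657), which differed clearly between classes, and to Fnip1 (chr11:54437929-54438178) and Nptn (chr9:58581990-58582239), which were nearly even across them. All are on the plus strand. Capitals mark 6 motifs read on either strand: the E-box CACGTG, the TATA box TATAAA, the CCAAT box, the GC box GGGCGG, the photoreceptor homeobox motif TAATCC and the cyclic AMP response half-site TGACG. Matches of different motifs can overlap.
Immp2l: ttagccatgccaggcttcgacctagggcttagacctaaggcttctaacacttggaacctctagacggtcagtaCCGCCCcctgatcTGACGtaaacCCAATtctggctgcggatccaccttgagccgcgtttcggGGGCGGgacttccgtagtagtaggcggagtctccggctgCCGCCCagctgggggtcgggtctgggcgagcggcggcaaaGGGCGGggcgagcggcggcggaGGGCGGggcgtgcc
Ccdc88a: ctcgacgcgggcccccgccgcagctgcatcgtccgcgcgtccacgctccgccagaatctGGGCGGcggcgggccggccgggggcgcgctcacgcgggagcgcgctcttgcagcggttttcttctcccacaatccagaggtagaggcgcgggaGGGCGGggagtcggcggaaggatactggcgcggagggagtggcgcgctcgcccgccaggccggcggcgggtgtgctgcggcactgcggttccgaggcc
Fnip1: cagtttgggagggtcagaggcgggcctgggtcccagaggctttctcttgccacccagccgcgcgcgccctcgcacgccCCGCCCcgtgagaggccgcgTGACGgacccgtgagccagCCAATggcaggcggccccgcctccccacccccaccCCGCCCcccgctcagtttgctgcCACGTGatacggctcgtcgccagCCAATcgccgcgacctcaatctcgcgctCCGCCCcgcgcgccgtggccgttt
Nptn: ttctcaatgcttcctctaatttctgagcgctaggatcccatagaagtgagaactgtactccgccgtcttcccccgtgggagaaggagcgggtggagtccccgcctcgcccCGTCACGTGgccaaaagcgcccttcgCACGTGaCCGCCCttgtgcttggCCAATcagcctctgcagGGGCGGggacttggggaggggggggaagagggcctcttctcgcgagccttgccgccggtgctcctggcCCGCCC
CCAAT was found in 9 of the 11 windows (8 of the 9 genes) and in 37.4% of all promoter windows. GGGCGG was found in 7 (6 genes) and in 35.7%, TGACG in 4 and in 20.8%, and CACGTG in 2 (Fnip1 and Nptn) and in 7.15%. TAATCC was found in 1 window, of Cdc42bpa, and in 7.06% of all, and TATAAA in none of the 11 and in 13.6%. Macrod2 and Cdc42bpa have more than 1 window each, and those of Macrod2 overlap, so the same sites are counted again. All promoter windows were not limited to genes tested here. These are letter matches only.

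The 6 libraries held 62893 barcodes and 15905689 to 29340705 UMIs each (unique molecular identifiers, 1 per counted transcript). Of 55230 barcodes kept, 19636 were assigned to rods, cones, rod bipolar, amacrine, horizontal, retinal ganglion cells or Müller glia, by the summed level of each class's own markers. Library pairs shared 11 to 74 barcodes, at most 0.506% of the smaller. 2 libraries stand apart. In 18 months replicate 3, 87.2% of kept barcodes had no class, against 39.1% to 58.4% in the others, and its amacrine sum rests on 27 nuclei and 53004 UMIs. In 3 months replicate 1, 41.9% of barcodes were removed by the limits on genes and mitochondrial UMIs, against 1.12% to 23.8% in the others. Replicate 1 of each age was counted with Cell Ranger 7.1.0 and the others with 7.2.0.

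Across classes, 28 of the 70 gene and class pairs differed from the mean of the other 6 classes at an adjusted p of 0.05 or less, 12 higher and 16 lower (edgeR's quasi-likelihood test with a library block, Benjamini-Hochberg over all genes). Over all genes tested, 36.6% of pairs did so, so the members' share was near the background. Levels here are CPM, UMI counts scaled to the total of each class and library, with TMM scaling over all classes and libraries together. Rods were the low class: 8 of the 10 members were lower in rods, against 32.4% of all genes tested, and the exceptions were Desi2 and Nptn. With the 18-month libraries alone only 4 of these 8 passed (Frmd5, Usp29, Ccdc88a and Cdc42bpa), and with classes made by clustering 5 did. The share of genes higher in rods was 36.8%, and no member was. Amacrine cells had 4 members higher and none lower, against 17.3% and 16.6% of genes. Retinal ganglion cells had 4 higher and 4 lower, against 29.3% and 29.2%. Cones had 1 and 1 (17.9% and 16.1% of genes), horizontal cells 1 and 1 (12.2% and 13.8%), rod bipolar cells 1 and 0 (10.7% and 6.2%) and Müller glia 1 and 2 (11% and 6.9%).

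**Figure D1:**
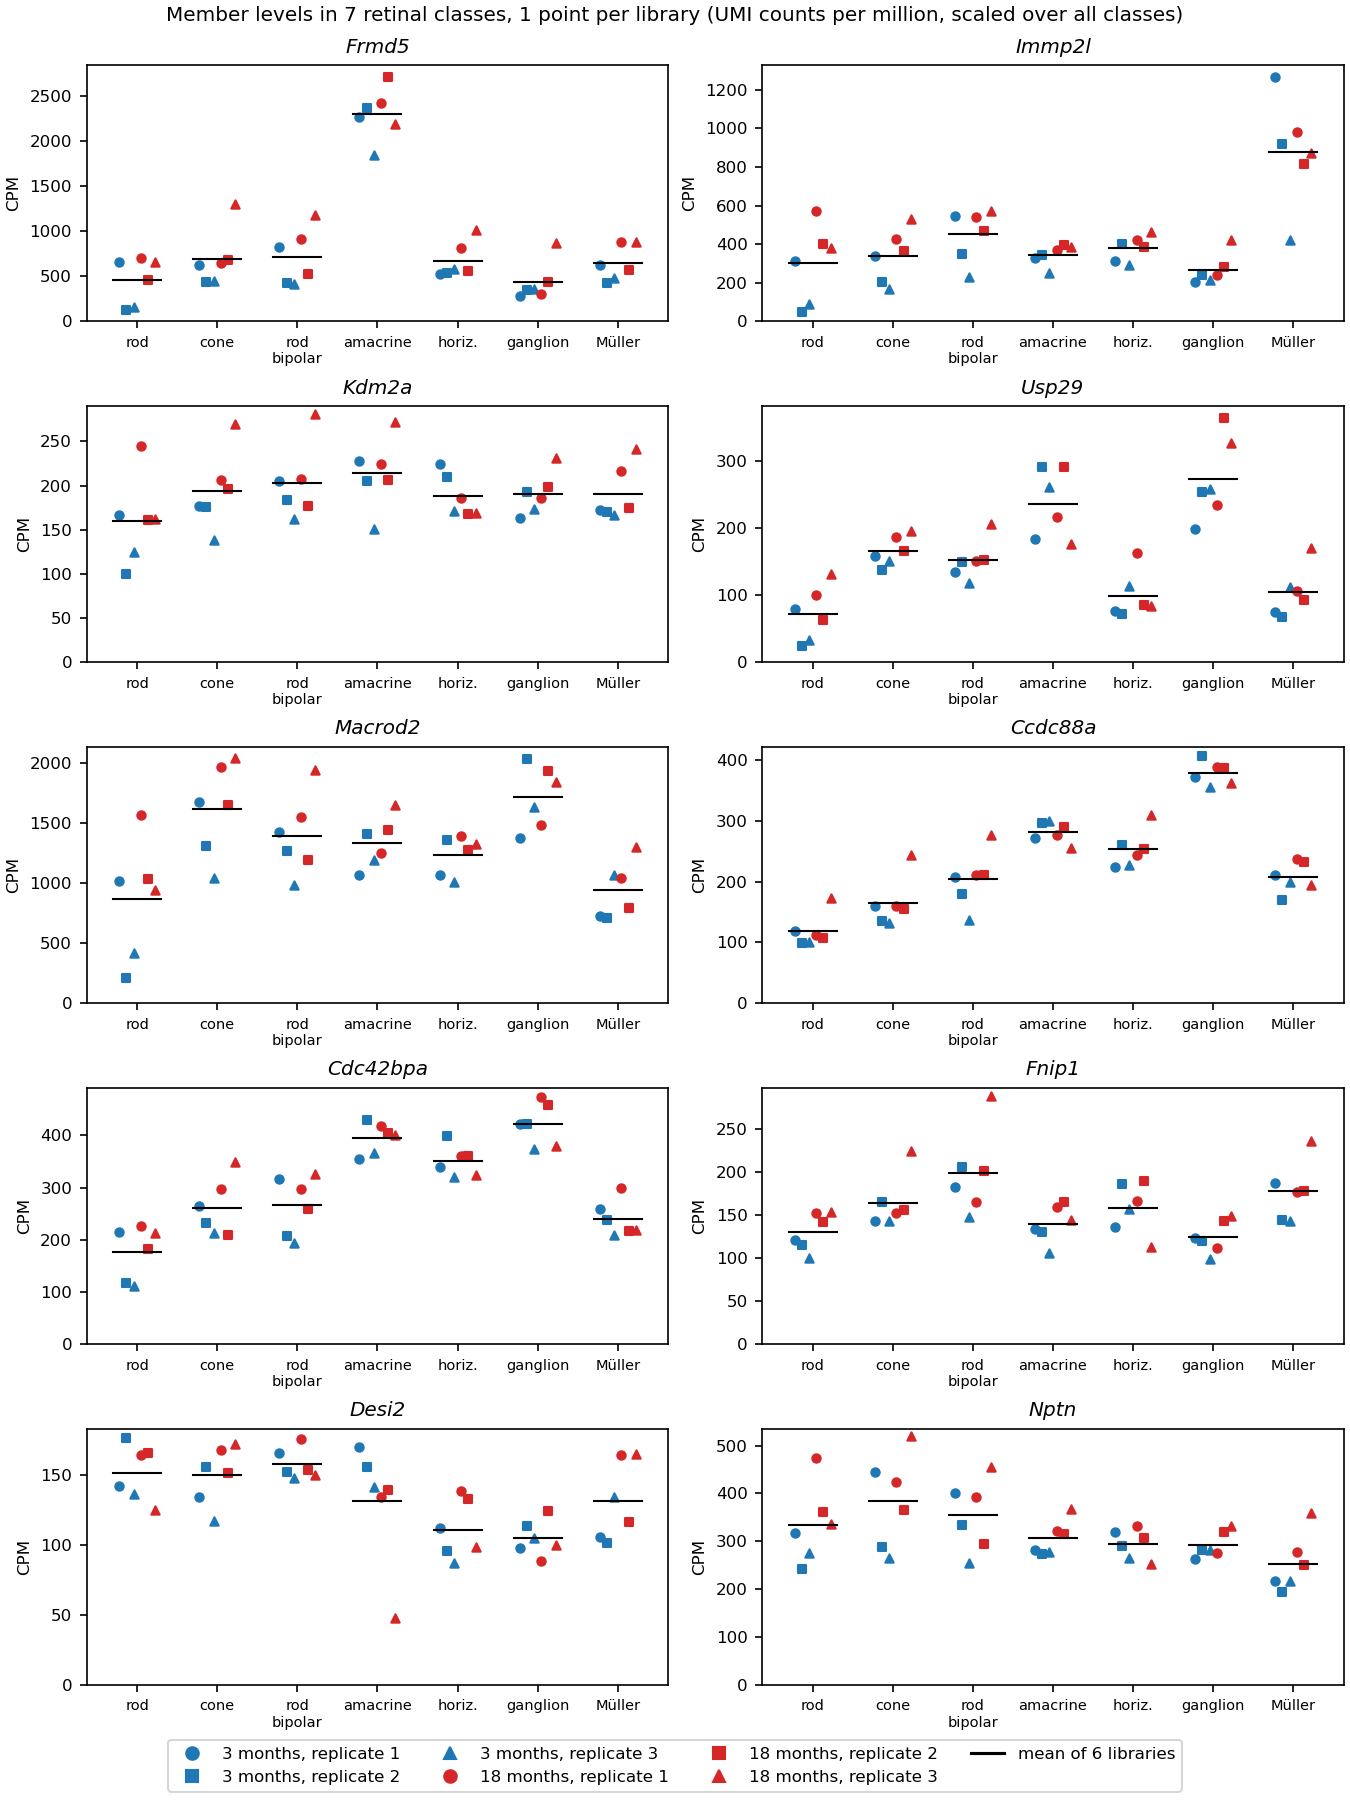
Level of each gene (CPM from UMI counts, vertical axis from 0) in 7 retinal classes, with 1 point per library, blue for 3 months and red for 18 months, the marker shape giving the replicate, and a bar for the mean of the 6 libraries. Frmd5 is highest in amacrine cells (2304 CPM), Immp2l in Müller glia (879 CPM), and Usp29, Ccdc88a and Cdc42bpa have their highest means in retinal ganglion cells.

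Frmd5, the FERM-domain protein of cell contacts, was highest in amacrine cells among the classes tested. Its level in amacrine nuclei was 2304 ± 287 CPM (SD, n = 6 libraries), 1850 in the lowest library and 2717 in the highest. The mean of the other classes was 603 CPM, and the difference was 2.09 ± 0.16 on the log2 scale (SE; edgeR adjusted p = 1.02e-14; higher in 6 of 6 libraries). It held at 3 months alone (2.31) and at 18 months alone (1.84). Rod bipolar cells, cones, horizontal cells and Müller glia followed at means of 647 to 716 CPM, and neighbours among these 4 did not differ. Müller glia exceeded rods (log2 difference 0.60, edgeR adjusted p = 0.0318). Rods (459 ± 259 CPM) and retinal ganglion cells (437 ± 220 CPM, n = 6) were lowest. Both were lower than the rest, by edgeR adjusted p of 0.00015 and 0.000246. With classes made by clustering instead, the rod difference was smaller, at -0.32 with an edgeR adjusted p of 0.102.

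Immp2l, the mitochondrial inner membrane peptidase, was highest in Müller glia, which span the retina and support its neurons. The mean there was 879 ± 273 CPM (n = 6), ranging from 423 to 1266 over libraries, against 347 CPM in the other classes. The log2 difference was 1.39 ± 0.18 (SE; edgeR adjusted p = 1.99e-08; higher in 6 of 6 libraries), with 1.70 at 3 months alone and 1.12 at 18 months alone. Müller glia also exceeded the next class, rod bipolar cells at 452 CPM (log2 difference 0.996, edgeR adjusted p = 0.0036). From rod bipolar cells down to retinal ganglion cells (267 CPM) no neighbour differed from the next. Rods and retinal ganglion cells were each lower than the rest by 0.60 on the log2 scale. For rods this came from the 3-month libraries: the difference was -1.39 at 3 months alone and -0.05 at 18 months alone (edgeR adjusted p = 0.829), and it missed the threshold without 3 months replicate 2 (edgeR adjusted p = 0.0599) or replicate 3 (edgeR adjusted p = 0.0717). The ganglion cell call was lost without replicate 1 at 3 months (edgeR adjusted p = 0.0583) or at 18 months (edgeR adjusted p = 0.0564). It also missed the threshold at 3 months alone (-0.43, edgeR adjusted p = 0.228).

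Usp29, the paternally expressed ubiquitin peptidase, was highest in retinal ganglion and amacrine cells. Retinal ganglion cells had 274 ± 61.6 CPM and amacrine cells 237 ± 52.0 CPM (n = 6), and these did not differ from each other (log2 difference 0.11 ± 0.21, SE). Each exceeded the rest, in 6 and in 5 of 6 libraries, by 1.09 ± 0.15 (edgeR adjusted p = 1.58e-08) and by 0.96 ± 0.16 (adjusted p = 4.67e-06). Cones and rod bipolar cells lay between, at 166 and 152 CPM. Müller glia, horizontal cells and rods had 105, 99.2 and 71.9 CPM, all lower than the rest, and rods were lower again than horizontal cells (log2 difference 0.62, edgeR adjusted p = 0.0287). The Müller glia call missed the threshold without 3 months replicate 1 (edgeR adjusted p = 0.101) or 18 months replicate 1 or 2 (edgeR adjusted p = 0.0787 and 0.0938). The horizontal cell call missed it without 3 months replicate 1 or 2 (edgeR adjusted p = 0.106 and 0.0801) or 18 months replicate 2 or 3 (edgeR adjusted p = 0.122 and 0.0845). At 3 months alone neither the Müller glia nor the horizontal cell call passed (edgeR adjusted p = 0.205 and 0.126). Neither passed at 18 months alone (edgeR adjusted p = 0.128 and 0.287). Peg3, the zinc-finger gene that lies in the same imprinted domain, was also higher in retinal ganglion (1.26) and amacrine cells (0.54) and lower in horizontal cells (-1.24), Müller glia (-0.52) and rods (-0.33). Unlike Usp29, Peg3 passed the test in cones (0.58).

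Among the 45 member pairs, Ccdc88a and Cdc42bpa, both linked to the actin cytoskeleton, had the most alike levels. Their Pearson r was 0.89 over 42 class and library values, which share libraries and classes. Ccdc88a was highest in retinal ganglion cells at 379 ± 18.8 CPM (n = 6; 355 to 406), followed by amacrine cells at 282 ± 16.8 CPM, and the 2 classes differed (log2 difference 0.40 ± 0.13, edgeR adjusted p = 0.0259). It fell to 164 CPM in cones and 119 CPM in rods, which were lower than the rest by 0.49 and 1.04. The ganglion cell difference from the rest was 0.96 ± 0.09 (SE; edgeR adjusted p = 3.86e-12; higher in 6 of 6 libraries). Amacrine cells also exceeded the rest (0.49), but not at 18 months alone (0.35, edgeR adjusted p = 0.173). The cone difference missed the threshold there too (-0.43, edgeR adjusted p = 0.0716). Cdc42bpa had 421 ± 40.3 CPM in retinal ganglion cells, 395 ± 29.2 in amacrine cells and 350 ± 29.4 in horizontal cells. All 3 exceeded the rest, by 0.64, 0.54 and 0.34, and neighbours among them did not differ. Rods were lowest at 177 ± 51.7 CPM. The horizontal cell level was above the other classes in 6 of 6 libraries, but its call was lost with 1 library fewer: with log2 differences of 0.28 to 0.31, edgeR's adjusted p was 0.0738 without 3 months replicate 2, 0.0942 without replicate 3 and 0.0714 without 18 months replicate 2. The call also missed the threshold at 3 months alone (0.43, edgeR adjusted p = 0.0717) and at 18 months alone (0.21, edgeR adjusted p = 0.561).

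Macrod2, the ADP-ribose eraser, was higher in retinal ganglion cells (1713 ± 260 CPM, n = 6; log2 difference 0.56 ± 0.17, edgeR adjusted p = 0.00532) and lower in rods (863 ± 487 CPM; -0.71 ± 0.19, adjusted p = 0.00119). No neighbours in its order of classes differed. The rod difference was -1.21 at 3 months alone and -0.31 at 18 months alone, where it missed the threshold (edgeR adjusted p = 0.18). The ganglion cell difference was 0.79 at 3 months alone and 0.38 at 18 months alone, where it also missed it (edgeR adjusted p = 0.102).

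The other 4 genes were nearly even. Fnip1, the folliculin partner, ranged from 198 ± 49.1 CPM in rod bipolar cells to 124 ± 18.7 CPM in retinal ganglion cells. It was higher than the rest in the former (0.39 ± 0.09, edgeR adjusted p = 0.00194) and lower in the latter (-0.38 ± 0.10, adjusted p = 0.000893) and in rods (-0.30). The rod bipolar and ganglion cell calls missed the threshold at 3 months alone (edgeR adjusted p = 0.053 and 0.0516). They also missed it at 18 months alone (edgeR adjusted p = 0.201 and 0.0647). Nptn was higher in cones (384 ± 97.2 CPM; 0.32 ± 0.10, adjusted p = 0.0148) and lower in Müller glia (253 ± 60.1 CPM; -0.38 ± 0.11, adjusted p = 0.0117). Both Nptn calls missed the threshold without 3 months replicate 1 (edgeR adjusted p = 0.112 for each). The cone call also missed it without 18 months replicate 3 (edgeR adjusted p = 0.0522), and the Müller call without 18 months replicate 1 (edgeR adjusted p = 0.0551). At 3 months alone neither the cone nor the Müller call passed (edgeR adjusted p = 0.322 and 0.0792). Neither passed at 18 months alone (edgeR adjusted p = 0.114 and 0.424). Desi2 was lower in retinal ganglion cells (105 ± 12.6 CPM; -0.41 ± 0.11, edgeR adjusted p = 0.00174). Its call missed the threshold at 3 months alone (-0.32, edgeR adjusted p = 0.0739). Kdm2a passed only in rods (160 ± 49.0 CPM; -0.31 ± 0.11, adjusted p = 0.00853), and this call was lost without 3 months replicate 2 (edgeR adjusted p = 0.0843) and with classes made by clustering (edgeR adjusted p = 0.584). The Fnip1 call in rods was lost with clustering too (edgeR adjusted p = 0.192). With the 18-month libraries alone the rod differences of Kdm2a (-0.15, edgeR adjusted p = 0.435) and Fnip1 (-0.21, adjusted p = 0.281) did not pass. The spread of Kdm2a between class means exceeded that of only 3.77% of genes tested, while the spread of Frmd5 exceeded that of 80.7%.

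**Figure D2:**
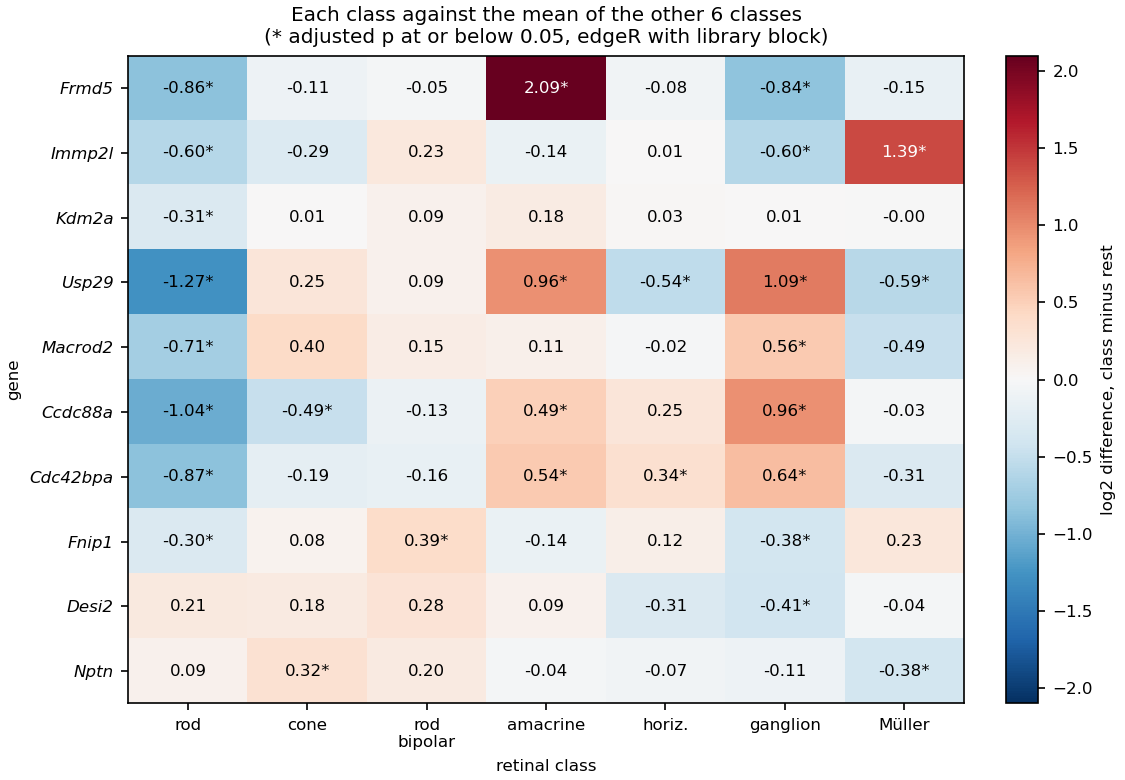
Log2 difference of each gene (rows) in each class (columns) from the mean of the other 6 classes over 6 libraries, in colour and printed, with a star where edgeR's adjusted p was 0.05 or less. The largest are Frmd5 in amacrine cells (2.09) and Immp2l in Müller glia (1.39), and the rod column holds 8 negative starred values.

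Each gene's levels were set beside those of 8237 genes with a mean of at least 20 CPM. Pearson r was taken over the 42 class and library values. These vary with library and age as well as with class, so r does not measure a shared class pattern alone. Nearest to Ccdc88a were Rims1 (0.94), a scaffold of the presynaptic active zone, Dync1i1 (0.93) and Mapk10 (0.92). Nearest to Cdc42bpa were Ptprn2, Exoc6b and Fam155a (each 0.93). Frmd5 lay closest to Ptprk (0.87), Tcf12 (0.87) and Stxbp6 (0.84), and Immp2l to Phlpp1 (0.87), Dennd1a (0.86) and Pan3 (0.85). Usp29 lay closest to Gpr158 (0.89), Fat3 (0.86) and Ralyl (0.86), and Macrod2 to Vps13b (0.90), Faf1 (0.89) and Erc2 (0.89). The even genes had weaker nearest matches. These included Vps13b and Rbm6 for Kdm2a (each 0.80), Gpsm1 (0.82), Vopp1 (0.79) and Poc5 (0.78) for Desi2, Zbtb20 (0.76), Ssbp2 (0.73) and Tcf4 (0.72) for Fnip1, and Gbf1 (0.75), Zfp961 (0.74) and Dmxl2 (0.74) for Nptn. None of these genes is a marker used to assign classes.

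The closest relatives matched the members in some classes and not in others, with Peg3 described above. Frmd4a, another FERM-domain gene, was higher in amacrine cells (1.13) and lower in rods (-2.06) as Frmd5 was, but also higher in horizontal (1.27) and retinal ganglion cells (1.08). Immp1l, the other catalytic subunit of the peptidase, passed in no class, with means from 199 to 218 CPM. Ccdc88c, the Girdin paralogue Daple, was higher in Müller glia (1.35) and rod bipolar cells (1.31) and lower in retinal ganglion cells (-0.70), and like Ccdc88a it was lower in rods (-1.40) and cones (-0.82). Cdc42bpb passed only in retinal ganglion cells (0.34). Macrod1 was higher there too (1.15) and in amacrine cells (0.52), Kdm2b was higher in amacrine cells (0.44) and, like Kdm2a, lower in rods (-0.86). Desi1 was higher in cones (0.75) and, like Desi2, lower in retinal ganglion cells (-0.30). Bsg, the basigin relative of neuroplastin, was higher in rods (1.36) and Müller glia (0.67). Fnip2 was higher in rods (0.31) and lower in Müller glia (-0.57). Each difference given for these relatives passed edgeR's adjusted p of 0.05.

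By age, levels were scaled within each class. Of the 70 gene and class pairs, 15 had all 3 libraries at 18 months above all 3 at 3 months, and 1 had them below (Desi2 in amacrine cells). Over all gene and class pairs tested, 3.68% were higher without overlap; the members were chosen on this contrast, so nothing is read from their count. Without 18 months replicate 3 the count was 20 (background 6.42%), and without 3 months replicate 1 it was 31 (background 15.9%). Leaving out 3 months replicate 2 or 3 gave 26 and 20 (backgrounds 5.8% and 5.98%), and leaving out 18 months replicate 1 or 2 gave 24 and 30 (8.19% and 9.23%). Release 7.2.0 alone gave 40 (20.8%) and classes made by clustering 28 (4.27%). Removing nuclei by Scrublet rank gave 16 (3.91%), no mitochondrial limit 19 (4.26%), and a limit of 2% gave 9 of 60 (3.51%). The highest of the 6 libraries was 18 months replicate 3 in 43 pairs. Among all genes tested, that library was the highest in 21.9%. The choice of members favours a highest value at 18 months, so nothing is read from this difference.

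**Figure D3:**
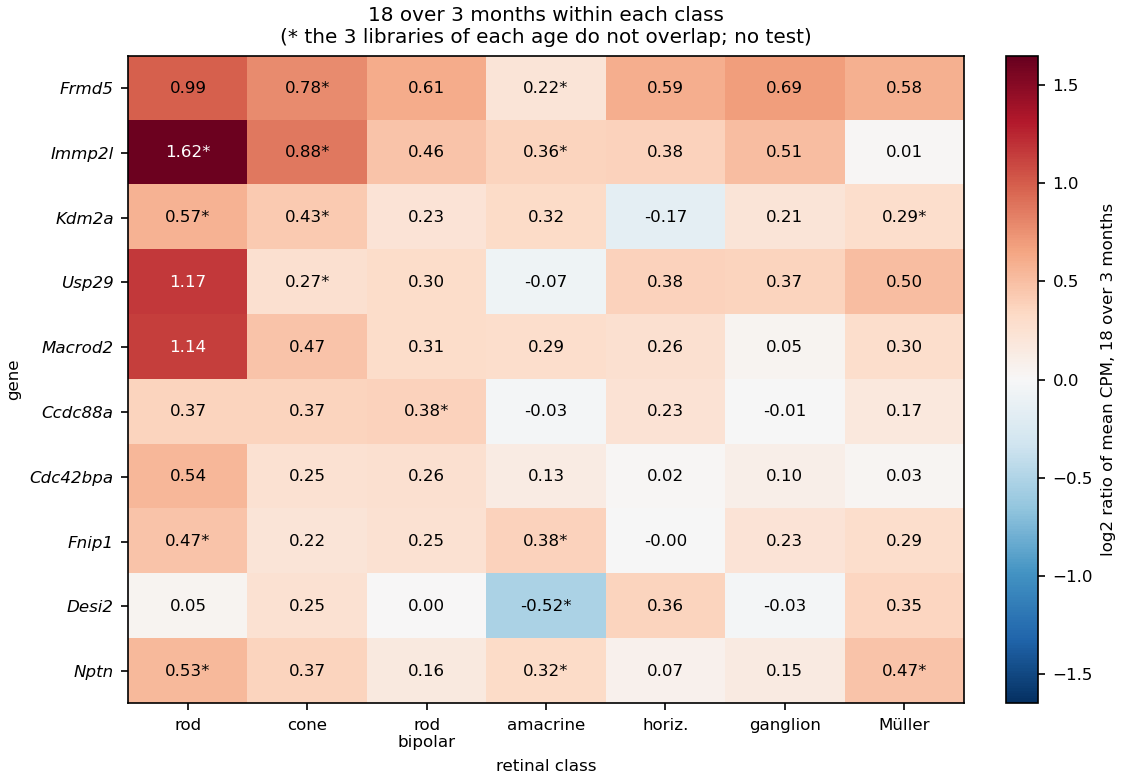
Log2 ratio of mean CPM, 18 over 3 months (3 libraries each), for each gene (rows) and class (columns), with a star where the libraries of both ages did not overlap; no test was made. Rods hold the largest ratios (Immp2l, 1.62) and Desi2 in amacrine cells is lowest (-0.52).

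Rods gave the largest ratios. Immp2l in rods had 297, 46.7 and 84.4 CPM in 3 months replicates 1 to 3 and 521, 405 and 392 CPM in 18 months replicates 1 to 3, from 79 to 1446 UMIs. The ages did not overlap, and the ratio of the means was 1.62 on the log2 scale. Replicate 1 at 3 months stood far above the other two of its age. Frmd5 in rods had 625, 116 and 158 CPM at 3 months and 642, 463 and 675 CPM at 18 months. Here 3 months replicate 1 lay within the 18-month range, so the ages overlapped despite a ratio of 0.99. Macrod2 showed the same shape, with 971, 195 and 397 CPM at 3 months and 1432, 1051 and 967 CPM at 18 months. Usp29 had 75.1, 23.0 and 31.7 CPM and then 91.1, 64.5 and 136 CPM. In both genes 3 months replicate 1 overlapped the 18-month libraries. Kdm2a, Fnip1 and Nptn had smaller ratios without overlap. Nptn had 302, 229 and 263 CPM at 3 months and 433, 368 and 347 CPM at 18 months. In all, 4 of 10 members did not overlap in rods, where 4.21% of genes tested were higher without overlap.

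Some other measures in rods moved with these values. The summed level of 12 rod markers in the rod nuclei was 42539, 92221 and 71361 CPM at 3 months and 26954, 46467 and 32073 CPM at 18 months. The 9 amacrine markers, of which none was at 0, summed to 903, 335 and 437 CPM at 3 months and 995, 760 and 846 CPM at 18 months. The 8 rod bipolar markers, none at 0, summed to 876, 449 and 531 CPM and then to 1125, 1295 and 1239 CPM. Only this sum did not overlap between ages: no single amacrine or rod bipolar marker was higher at 18 months without overlap. The 3-month libraries lowest in Immp2l, Frmd5, Macrod2 and Usp29 thus had the highest rod marker levels and the lowest levels of these 2 marker sets. Desi2 did not follow, with 136, 167 and 130 CPM at 3 months. Nor did every marker set. At 3 months the 9 cone markers summed to 1086, 1264 and 1529 CPM and the 12 ganglion cell markers to 800, 550 and 1108 CPM. All 68 markers of other neurons and glia summed to 5085, 3415 and 4558 CPM, then to 4746, 6326 and 7428 CPM, with overlap between ages. The part of the markers in the member values was not tested.

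**Figure D4:**
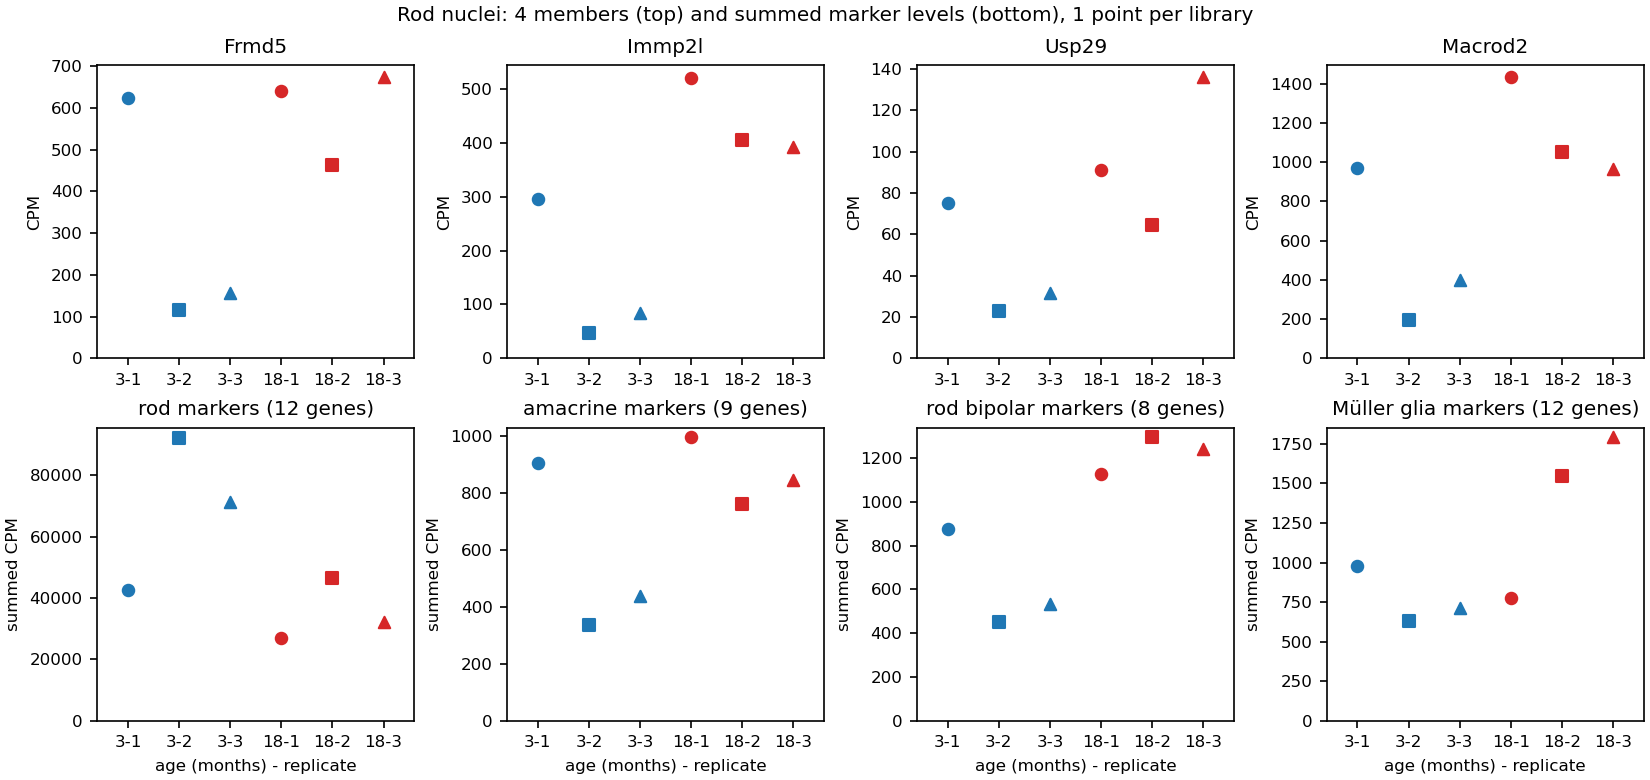
Rod nuclei in each library (horizontal axis, age and replicate): CPM of 4 genes in the upper row and summed CPM of the markers of rods, amacrine cells, rod bipolar cells and Müller glia in the lower row, each axis starting at 0. In 3 months replicates 2 and 3 the 4 genes are low, the rod markers high and the amacrine and rod bipolar markers low; 3 months replicate 1 lies nearer the 18-month libraries.

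In cones 4 of 10 members did not overlap, against 2.78% of genes. Frmd5 had 671, 465 and 473 CPM at 3 months and 682, 715 and 1372 CPM at 18 months. Immp2l had 360, 221 and 179 CPM and then 452, 387 and 557 CPM, and Kdm2a and Usp29 had smaller gaps. All 10 members were highest in 18 months replicate 3 in cones. The 8 rod bipolar markers in cones, none at 0, summed to 615, 585 and 565 CPM at 3 months and 624, 786 and 1206 CPM at 18 months; their part was not tested. For Frmd5 that library reached 1372 CPM, against at most 715 CPM in the other 5.

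In amacrine cells 4 members did not overlap, against 3.42% of genes. Frmd5, already at its highest there, had 2369, 2370 and 1869 CPM at 3 months and 2558, 2724 and 2401 CPM at 18 months, a log2 ratio of 0.22. Immp2l, Fnip1 and Nptn had log2 ratios of 0.36, 0.38 and 0.32. Desi2 was the exception, with 178, 156 and 143 CPM at 3 months and 142, 139 and 52.6 CPM at 18 months, lower without overlap, as were 4.15% of genes there; the last value rests on 3 UMIs. The summed level of the 12 rod markers in amacrine nuclei was lower at 18 months without overlap (4498 to 7565 CPM against 8928 to 10100 CPM), as were 3 of the markers singly. Its part in these values was not tested.

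Müller glia had 2 members without overlap, against 2.74% of genes. Nptn had 232, 218 and 244 CPM at 3 months and 299, 272 and 394 CPM at 18 months. Kdm2a had 185, 189 and 188 CPM and then 232, 189 and 265 CPM, so its gap rests on a difference in the first decimal. The 9 amacrine markers in these nuclei, none at 0, summed to 456 to 734 CPM at 3 months and 803 to 1088 CPM at 18 months. The 8 rod bipolar markers summed to 684 to 739 CPM and then to 938 to 1344 CPM. The 12 rod markers were lower at 18 months without overlap (7516 to 12958 CPM against 13128 to 21554 CPM), as were 5 of them singly. Sums of the other marker sets overlapped between ages. The part of the markers in these values was not tested. Immp2l, highest in this class, had a log2 ratio of 0.01 over all libraries, but -0.37 within release 7.1.0 and 0.29 within 7.2.0. Its levels were 1359, 1026 and 477 CPM at 3 months and 1051, 882 and 955 CPM at 18 months. Rod bipolar cells had 1, Ccdc88a, with 212, 191 and 152 CPM at 3 months and 214, 234 and 274 CPM at 18 months, against 2.61% of genes.

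Horizontal and retinal ganglion cells had no member without overlap, against 8.17% and 3.47% of genes tested. In retinal ganglion cells Frmd5 had the largest ratio (0.69), from 257, 324 and 335 CPM at 3 months and 278, 396 and 807 CPM at 18 months, so it was carried by 18 months replicate 3. Ccdc88a, highest in that class, had 338, 374 and 327 CPM and then 350, 349 and 335 CPM. Its ages overlapped fully. Kdm2a in horizontal cells had the lowest ratio after Desi2 in amacrine cells (-0.17). In barcodes without a class 2 members did not overlap, Kdm2a and Nptn, against 2.63% of genes tested.

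The age difference was recomputed within each Cell Ranger release. Between the 7.1.0 libraries, 1 per age, the 18-month level was higher in 56 of 70 pairs, with a median log2 ratio of 0.15. Between the 7.2.0 libraries, 2 per age, it was higher in 60, with a median of 0.37. Both releases gave a higher level in 48 pairs, and Frmd5 and Macrod2 did so in all 7 classes. In rods the releases differed most: Frmd5 had a log2 ratio of 0.04 within 7.1.0 and 2.06 within 7.2.0, and Immp2l had 0.81 and 2.61. The release and the library preparation cannot be told apart.

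**Figure D5:**
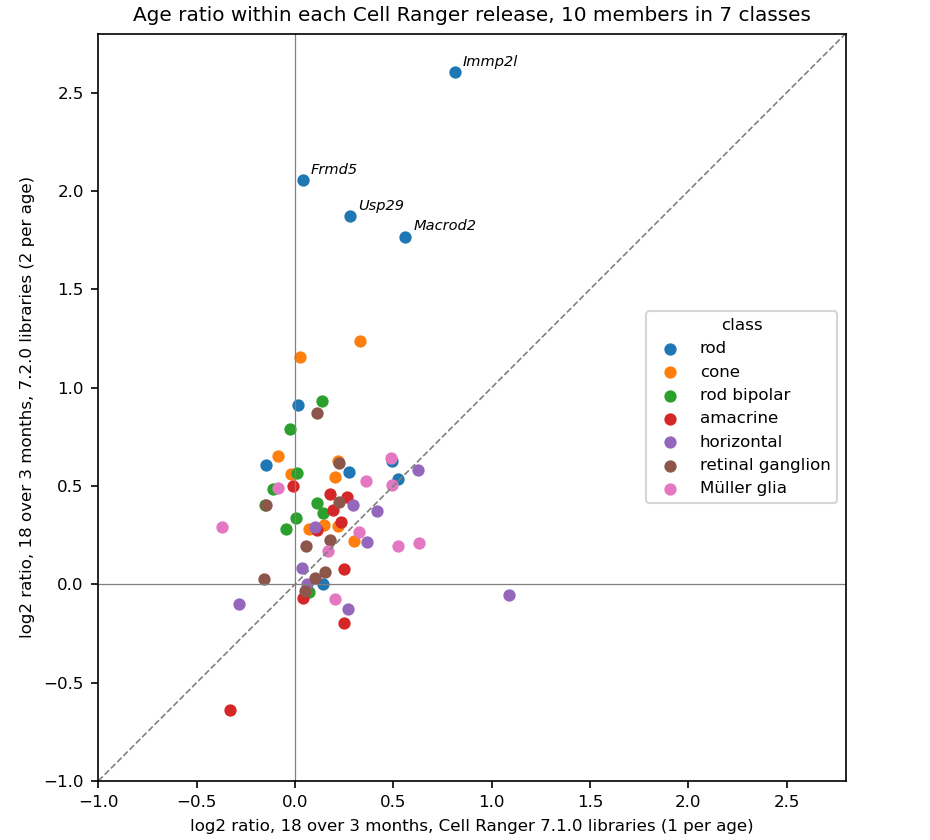
Log2 ratio, 18 over 3 months, between the 2 libraries counted with Cell Ranger 7.1.0 (horizontal axis) and between the 4 counted with 7.2.0 (vertical axis), 1 point per gene and class, coloured by class, with a dashed line of equality. Most points (48 of 70) are above 0 on both axes, and 4 rod points lie far above the line.

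Counted over genes tested in all 7 classes, 77.5% were higher without overlap in no class, 17.2% in 1, 4.46% in 2, 0.815% in 3 and 0.116% (7 genes) in 4. Macrod2, Cdc42bpa and Desi2 were among those with 0, Usp29 and Ccdc88a with 1, Frmd5 and Fnip1 with 2, and Immp2l, Kdm2a and Nptn with 3. With classes made by clustering, which adds cone bipolar cells as an eighth class, Frmd5, Immp2l, Kdm2a and Usp29 each reached 4 classes and no member reached 5. Only 3 of 5084 genes tested in all 8 did. In those classes Frmd5 was higher without overlap in cones, amacrine cells, retinal ganglion cells and Müller glia, and Usp29 in rods, cones, Müller glia and cone bipolar cells. How far these counts fall short of the 5 or 6 classes of the earlier choice therefore depends on how nuclei were assigned.

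The genes around the members were tested by age in each class, with the Cell Ranger release as a term (edgeR's quasi-likelihood test, Benjamini-Hochberg over all genes). In 9 lists of 188 genes, related to the members by family or pathway, 5 of 1090 gene and class tests passed, all higher and all in horizontal cells (over all gene and class tests 0.377% were higher and 0.236% lower). Without the release term 1 passed, where 0.112% of all tests were higher and 0.00854% lower. There 5 of 120 list genes passed, against 4.15% of all genes tested that were higher at 18 months; the share is near the background. In rods, cones and Müller glia no gene of any list or of the whole table passed, although 1906, 332 and 394 genes had an unadjusted p under 0.05 and DESeq2 called 108, 1 and 0. None of the 10 closest relatives passed in any class (lowest edgeR adjusted p = 0.237).

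3 of the 5 were FERM-domain relatives of Frmd5. Frmd4b had 55.8, 28.9 and 39.0 CPM at 3 months and 252, 125 and 386 CPM at 18 months in horizontal cells (log2 difference 2.42 ± 0.35, SE; edgeR adjusted p = 0.000222, and 0.0243 without the release term). This call was lost at a mitochondrial limit of 2% (log2 difference 1.31, edgeR adjusted p = 0.398) and with classes made by clustering (1.34, adjusted p = 0.283), as were the other 4. Epb41 and Epb41l2, cytoskeletal proteins of the band 4.1 family, rose by 0.99 ± 0.22 and 1.14 ± 0.25. Parp8, of the ADP-ribosylation list of Macrod2, rose by 1.93 ± 0.39. Pak3, a Cdc42-activated kinase of the list of Ccdc88a and Cdc42bpa, rose by 1.25 ± 0.27. Without the release term these 4 had edgeR adjusted p of 0.0554 to 0.0923 and did not pass. In the same nuclei the 8 rod bipolar markers, none at 0, summed to 230, 245 and 215 CPM at 3 months and 698, 811 and 797 CPM at 18 months. Frmd4b itself had a mean of 587 CPM in rod bipolar cells and 806 CPM in cones, against 161 CPM in horizontal cells. The part of these markers in the 5 calls was not tested.

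The lists of the remaining members held no call. The 18 mitochondrial peptidases and their substrates had a median log2 difference of -0.11 in rods, beside 0.05 over all genes. The list of 23 lysine demethylases and H3K36 methyltransferases, which also holds Skp1a, had 0.13. The 25 genes of the folliculin pathway had 0.09 and the 18 SUMO cycle genes 0.11. The list of the basigin family and its partners, most of them partners, had -0.09. The tested FERM-domain and imprinted genes had larger rod medians, 0.53 and 0.52, with no gene passing.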

How the data were processed

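Nuclei were profiled with 10x Chromium 3' reagents, per the labels' protocols. The authors deposited raw UMI counts per gene and barcode; per the file headers these came from Cell Ranger 7.1.0 or 7.2.0, and the submitters' processing notes name mm10 and Seurat. Barcodes with at least 300 genes and at most 5% mitochondrial UMIs were kept. A nucleus joined a class when at least 3 of its markers were detected. Their summed share also had to be at least 2 times the library mean (Poisson p at or below 0.001). Nuclei passing several classes (1547) were left out, which also stood in for doublet removal, since Scrublet called at most 1 nucleus per library. Those passing only as rod bipolar and cone bipolar were kept, in the class with the higher ratio to the library mean. Counts were summed per class and library for classes with at least 20 nuclei in each. Markers, members and gene lists were chosen with earlier results of these data known.

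edgeR 4.0.16 (TMM, filterByExpr, quasi-likelihood) was fitted over all genes: by age with the release as a term, and by class with a library block. An adjusted p of 0.05 was the threshold. Both fits were tested on simulated data. Genes named are the 10 members, the 3 most alike each, 1 closest relative each, and up to 4 genes of each list passing by age with a mean of at least 20 CPM; 1 of the most alike genes is not reported here. Same-numbered libraries of the 2 ages deviated together (r over 0.1) in 17 of 21 class and number pairs, and in all 3 pairs for 4 of 7 classes (range -0.03 to 0.73). In every class 3 months replicate 3 correlated best with 18 months replicate 2. The replicate 1 libraries share release 7.1.0, so number and release cannot be told apart for them. The labels do not say that numbers pair animals. Alternatives were DESeq2 1.42.0, no low-count filter, age alone, a replicate block, each library left out, release 7.2.0 alone, other mitochondrial limits, clustering (scanpy 1.11.5) and Scrublet removal.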

Additional observations from a re-analysis of the deposited data

Results flagged for a closer look

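Clustering used all kept barcodes, so its classes can hold some of those without a class by markers. Barcodes that passed the filters but joined no class by markers entered none of the main class or age tests. In them 2 of the 10 genes were higher in all 3 libraries at 18 months than in all 3 at 3 months, as were 2.63% of 16478 genes tested there; the members were chosen on this contrast, so nothing is read from their count. Kdm2a had 185, 177 and 169 CPM at 3 months and 200, 191 and 245 CPM at 18 months, a fold of 1.20. Nptn had 314, 291 and 278 CPM and then 327, 351 and 445 CPM, a fold of 1.27. The 18-month replicate 3 library, the highest for both, holds 12614 of these 33424 barcodes.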

How the results depend on the processing

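No called class difference of a member changed sign under the alternatives run; 306 values still passed and 54 did not. Of the members' age values, which carry no test, 802 moved by less than the spread between libraries and 28 by more, with changes of sign among them (Usp29 in horizontal cells, 0.38 and then -0.05 with release 7.2.0 alone). The 15 member pairs higher without overlap became 40 with release 7.2.0 alone, 28 with clustering, 9 of 60 at a mitochondrial limit of 2%, and 20 to 31 with 1 library left out. Of the 28 class calls, 14 still passed with the 18-month libraries alone and 19 with the 3-month libraries alone. Desi2 in horizontal cells passed with the 3-month libraries alone (-0.50, edgeR adjusted p = 0.0377) but not over both ages. The list calls, 5 in all, became 1 with age alone, 12 without the low-count filter, 0 at the 2% limit, 0 with clustering, and 1 to 6 with 1 library left out.

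Genes called by age over the whole table depended more on the settings. With age alone there were 0 in rod bipolar, 0 in amacrine, 85 in horizontal and 0 in ganglion cells, against 1, 23, 394 and 13. Without the low-count filter there were 471 in rods, 10 in cones, 31 in rod bipolar, 50 in amacrine and 119 in ganglion cells and 3 in Müller glia. DESeq2 called 108 in rods, 1 in cones, 3 in rod bipolar and 236 in horizontal cells. Clustering gave 15 in rods, 0 in rod bipolar, 3 in amacrine, 5 in horizontal and 0 in ganglion cells and 61 in Müller glia. Release 7.2.0 alone gave 10 in rod bipolar and 212 in horizontal cells. The 2% limit gave 2 in rod bipolar, 33 in horizontal and 0 in ganglion cells, and left too few amacrine nuclei to fit. No mitochondrial limit gave 1 in cones, 40 in amacrine and 36 in ganglion cells. With 1 library left out the counts ran from 0 to 8 in rods, 0 to 8 in cones, 1 to 46 in rod bipolar, 4 to 44 in amacrine, 77 to 403 in horizontal and 0 to 88 in ganglion cells. The 77 came without 3 months replicate 2 and the 88 without 18 months replicate 3.

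The replicate block gave 0 calls in ganglion cells, 335 in horizontal and 20 in amacrine cells, and kept the list calls at 5. Same-numbered libraries correlated best with their own number in 13 of 21 cases, none of them of replicate 3. Depth limits the amacrine and horizontal values of 18 months replicate 3 most, where single members rest on as few as 3 and 6 UMIs.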
